A study of Mus musculus with 36 samples.

Results

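Pitx1, Shox2, Mab21l2, Lmx1b, Prrx1, Prrx2, Msx1 and Msx2 are 8 genes with known roles in limb patterning, and all 8 were found by symbol among the 24411 genes of the RNA-seq tables. They were selected on earlier results of these data, in particular the TPM (a read share scaled for transcript length) of Pitx1 and Shox2 in mesenchymal stem cells (MSCs) of the femur. Every comparison of the 8 genes with the femoral cells is therefore given as a description, with no test. MSCs are stromal cells that adhere and grow in culture and can form bone, fat and cartilage cells. The cells came from 8-week-old C57BL6/J mice with no genetic change or treatment named, and all were grown in MesenCult medium for up to 3 passages. The 4 groups were fBM-MSCs from femoral bone marrow, vBM-MSCs from vertebral bone marrow, A-MSCs from adipose tissue and P-MSCs from lung. RNA-seq was analysed in 3 fBM-MSC, 2 vBM-MSC, 3 A-MSC and 3 P-MSC libraries, and chromatin accessibility (ATAC-seq) in 1 pooled peak list per tissue. Crushed bone (marrow groups) and tissue digested with collagenase (adipose, lung) were the starting materials, so the isolation method and the tissue cannot be told apart between these pairs of groups. The groups are called femoral, vertebral, adipose and lung MSCs below, and keep the first names in the plots.

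In the embryo, a limb grows from a bud of mesenchyme under an ectodermal ridge, and its axes are laid down by transcription factors expressed in overlapping domains. PITX1 is a homeodomain protein that directs hindlimb identity upstream of TBX4, and SHOX2 is needed for the proximal segment that holds the humerus and femur. LMX1B specifies dorsal limb fate, PRRX1 and PRRX2 mark limb and craniofacial mesenchyme, MSX1 and MSX2 act downstream of BMP signals, and MAB21L2 is needed for eye and body wall development. Part of such positional expression is known to be kept by adult connective tissue cells.

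The genes lie on 5 autosomes of mouse build GRCm38, whose chromosome coordinates are those of mm10. Pitx1 (chr13:55825054-55831425, minus strand) has 3 exons, and Shox2 (chr3:66971723-66981771, minus strand) has 5 exons in each curated RefSeq transcript and 3 annotated starts. Mab21l2 (chr3:86546050-86548283, minus strand) is a single exon that lies inside Lrba, which runs on the opposite strand. Lmx1b (chr2:33560965-33641098, minus strand), Prrx1 (chr1:163245119-163313650, minus strand) and Prrx2 (chr2:30845367-30881247, plus strand) are the longest of the set. Msx1 (chr5:37820491-37824585, minus strand) and Msx2 (chr13:53466881-53472780, minus strand) are short genes of 2 exons, and Msx1 overlaps the antisense gene Msx1os. The libraries did not mark strand, so reads of Msx1 and Msx1os, or of Mab21l2 and unspliced Lrba, cannot be told apart where they overlap.

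The RefSeq promoter table (GRCm38) held 7 of the 8 genes. The 250 bases before the start are shown for Mab21l2, whose promoter summit was deposited for femoral MSCs only, for Msx1 and Msx2, whose promoters were accessible in all 4 tissues, and for Prrx1. Each is written 5′ to 3′ on the strand of its gene.
Mab21l2 promoter, chr3:86548284-86548533, minus strand: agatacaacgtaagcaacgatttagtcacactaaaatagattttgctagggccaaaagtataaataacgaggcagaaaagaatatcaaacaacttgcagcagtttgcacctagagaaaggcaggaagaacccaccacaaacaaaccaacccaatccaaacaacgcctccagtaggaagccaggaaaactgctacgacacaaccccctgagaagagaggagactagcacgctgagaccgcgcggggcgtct
Msx1 promoter, chr5:37824586-37824835, minus strand: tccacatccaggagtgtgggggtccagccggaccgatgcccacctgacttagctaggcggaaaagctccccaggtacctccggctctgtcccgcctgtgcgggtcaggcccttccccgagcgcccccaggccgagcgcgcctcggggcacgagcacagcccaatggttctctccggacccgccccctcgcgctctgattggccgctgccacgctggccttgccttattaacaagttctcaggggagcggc
Msx2 promoter, chr13:53472781-53473030, minus strand: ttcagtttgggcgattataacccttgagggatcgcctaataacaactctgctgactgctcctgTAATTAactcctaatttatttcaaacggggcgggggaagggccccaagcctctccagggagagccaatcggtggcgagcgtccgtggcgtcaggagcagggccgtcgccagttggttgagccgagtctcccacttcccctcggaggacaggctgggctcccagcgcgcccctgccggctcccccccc
Prrx1 promoter, chr1:163313651-163313900, minus strand: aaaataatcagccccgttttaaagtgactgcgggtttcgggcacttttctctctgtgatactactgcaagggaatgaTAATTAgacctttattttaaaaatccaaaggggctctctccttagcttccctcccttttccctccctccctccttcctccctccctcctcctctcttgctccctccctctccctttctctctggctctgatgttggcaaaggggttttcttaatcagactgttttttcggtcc
Capitals mark TAATTA, a core sequence that many homeodomain proteins bind in vitro. TAATTA was searched on both strands, as were the PITX-type core TAATCC and the AP-1 sequence TGANTCA, and each printed sequence holds at most 1 match. TAATTA occurred in the Prrx1 and Msx2 promoters and in 4.84% of the 32851 promoters of the table, and TAATCC (6.25% of all promoters) and TGANTCA (6.75%) occurred in none of the 7. The Prrx2, Msx1 and Lmx1b promoters held 21, 20 and 19 CpG dinucleotides, against a median of 6 over all promoters, and the Prrx1 promoter held 4.

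Windows of 101 bases centred on ATAC-seq summits are shown for 5 sites that overlap no annotated exon, picked after their values were seen because they differed between the tissue lists. They are a Shox2 intron and an inner Shox2 start with summits in the femoral MSC list alone, a site within Lrba downstream of Mab21l2, and introns of Prrx1 and Prrx2.
Shox2 intron, chr3:66976948-66977048, plus strand: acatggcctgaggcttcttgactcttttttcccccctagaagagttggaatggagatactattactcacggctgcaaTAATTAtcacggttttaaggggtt
Shox2 inner start, chr3:66978922-66979022, plus strand: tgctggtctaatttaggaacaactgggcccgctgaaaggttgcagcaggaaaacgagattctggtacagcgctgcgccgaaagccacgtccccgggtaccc
Site in Lrba, chr3:86539207-86539307, plus strand: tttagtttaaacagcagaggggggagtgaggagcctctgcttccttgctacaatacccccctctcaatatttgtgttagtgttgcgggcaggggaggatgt
Prrx1 intron, chr1:163252951-163253051, plus strand: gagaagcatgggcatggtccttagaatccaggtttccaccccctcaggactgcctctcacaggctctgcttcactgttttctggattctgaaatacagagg
Prrx2 intron, chr2:30848422-30848522, plus strand: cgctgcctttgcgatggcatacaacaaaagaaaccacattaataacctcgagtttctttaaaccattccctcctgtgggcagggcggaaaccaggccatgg
TAATTA stood in the Shox2 intron window, and such a match was found in 1.57% of the 64300 femoral MSC summit windows. Neither TAATCC, found in 2.28% of those windows, nor TGANTCA, found in 21.7%, occurred in these 5 windows. Over all 68 sites at the 8 genes, 3 held TAATTA, 1 held TAATCC and 8 held TGANTCA.

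The libraries held 19569650 to 40517739 expected counts, with a median of 34414200. All 7 MSC-positive markers reached at least 1 TPM in every femoral MSC library and 6 of 7 in every library of the other tissues. Of the MSC-negative markers, Ptprc stayed at or below 0.35 TPM in all libraries, while Cd34 read 79.16, 72.66 and 10.24 TPM in femoral MSCs and 0.91 to 7.46 elsewhere (single markers were picked out after their values were seen). Bone-lineage markers differed between the groups: the summed TPM of 8 osteoblast genes was 689 to 4157 in femoral MSCs, 43.9 and 614 in the 2 vertebral MSC libraries, 3.46 to 5.85 in adipose MSCs and 2.40 to 3.49 in lung MSCs. At least 1 TPM in every library was reached by 7 of the 8 osteoblast genes in femoral MSCs, 6 in vertebral MSCs and 1 each in adipose MSCs and lung MSCs. The 8 macrophage genes summed to 40.5 to 52.1 TPM in femoral MSCs and 15 to 45.8 elsewhere, with 3 of them (Adgre1, Tyrobp and Itgam) at 0 in all femoral MSC libraries. Of the same list, Cd68 read 12.27 to 18.47 TPM in femoral MSCs and 0.87 to 7.38 elsewhere, Lyz2 22.18 to 36.35 in femoral MSCs and 1.76 to 38.64 elsewhere, and Csf1r 0.60 to 0.89 in femoral MSCs and 0.61 to 6.56 elsewhere. The 8 muscle genes summed to 9.37 to 20.5 TPM in femoral MSCs, 55.7 and 496 in vertebral MSCs, 1035 to 1273 in adipose MSCs and 716 to 785 in lung MSCs, with Myod1, Myog, Myf5 and Pax7 at 0 in all 11 libraries and Acta1 reaching 1028 TPM in adipose MSCs. Chondrocyte genes summed to 126 and 186 TPM in vertebral MSCs, 16.1 to 101 in femoral MSCs and 1.61 to 11.2 in adipose and lung MSCs. Epithelial and mesothelial genes summed to 58.1 to 76.6 TPM in adipose MSCs and at most 4.14 elsewhere, and endothelial genes to 3.53 to 55.5 in adipose MSCs, 2.55 to 8.29 in lung MSCs and at most 1.19 in marrow MSCs. The part of these marker genes in the differences between tissues given below was not tested.

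Pitx1, Shox2, Mab21l2 and Msx1 were higher in each femoral MSC library than in any library of the other tissues, and outside the femur Pitx1 and Mab21l2 stayed at or under 0.09 TPM and Shox2 reached 1.10 TPM. All femoral MSC libraries lay above every other library for 4 of the 8 genes, and for 7.57% of the 12509 genes tested; since the genes were chosen with these levels known, nothing is read from that count. In bulk libraries, fewer cells of a type and less RNA per cell cannot be told apart. Osteoblast markers were highest in the same femoral MSC libraries, and their part in these levels was not tested.

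Pitx1 stood at 3.46, 3.0 and 6.50 TPM in the femoral MSC libraries, a mean of 4.32 ± 1.90 (SD, n = 3). In vertebral MSCs it read 0.04 and 0 TPM, in adipose MSCs 0.02, 0 and 0.05, and in lung MSCs 0, 0 and 0.09. The groups did not overlap: the 626 expected counts of the femoral libraries faced 2, 4 and 5 counts in vertebral MSCs, adipose MSCs and lung MSCs. Scaled to depth, the ratio of pooled counts was 233 against vertebral MSCs (95% exact interval 64.2 to 1927), 193 against adipose MSCs (75.0 to 710) and 149.9 against lung MSCs (63.9 to 463). These intervals cover counting error only, and the libraries were made without molecular identifiers. Reads pooled over libraries are not independent units, so the intervals are a description and no test is read from them. The vertebral and the lung counts came from a single library each and the adipose counts from 2 libraries. The ratio was 106 without vertebral replicate 2, 123 without adipose replicate 2, 506 without adipose replicate 3 and 92.6 without lung replicate 1, and none could be formed without vertebral replicate 1 or lung replicate 3.

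Shox2 had the highest femoral TPM of Pitx1, Shox2 and Mab21l2, with 17.10, 21.55 and 27.14 TPM in femoral MSCs (21.9 ± 5.03, SD, n = 3). It read 0 and 1.10 TPM in the vertebral MSC libraries, 0.10, 0.09 and 0 in adipose MSCs, and 0, 0.31 and 0.66 in lung MSCs. A vertebral MSC library thus lay both at the bottom and at the top of the non-femoral values. All 61 vertebral counts came from replicate 2. The ratio of pooled counts was 40.3 (31.3 to 52.8) against vertebral MSCs, 581 (282 to 1447) against adipose MSCs and 104 (75.6 to 147) against lung MSCs. The first ratio was 21.9 without vertebral replicate 1, outside its counting interval, and without replicate 2 no ratio could be formed. The second was 1442 without adipose replicate 1 and 381 without replicate 3. The third was 64.3 without lung replicate 1 and 166.8 without replicate 3, both outside its counting interval. The vertebral MSC library with 1.10 TPM of Shox2, replicate 2, was also the one with the higher osteoblast marker sum of 614 TPM. Replicate 1, with no Shox2, had a sum of 43.9, and the lung MSC library with 0.66 TPM of Shox2 a sum of at most 3.49. The part of bone-lineage cells in these Shox2 levels was not tested.

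Mab21l2 read 3.24, 2.96 and 2.60 TPM in femoral MSCs (2.93 ± 0.32, SD, n = 3), the narrowest relative spread of these 3 genes, and 0 in all 8 other libraries. Its 438 femoral counts were at least 109-fold higher than in vertebral MSCs, 180.0-fold higher than in adipose MSCs and 175-fold higher than in lung MSCs, with a floor of 3 counts over each of those tissues. These bounds use the pooled depth of each non-femoral tissue and would be lower with any of its libraries left out. Lrba, the gene around Mab21l2, read 0.50, 0.46 and 0.27 TPM in femoral MSCs and 0.02 to 0.17 elsewhere. Lmx1b was at 0 in all 11 libraries and entered no test.

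**Figure D1:**
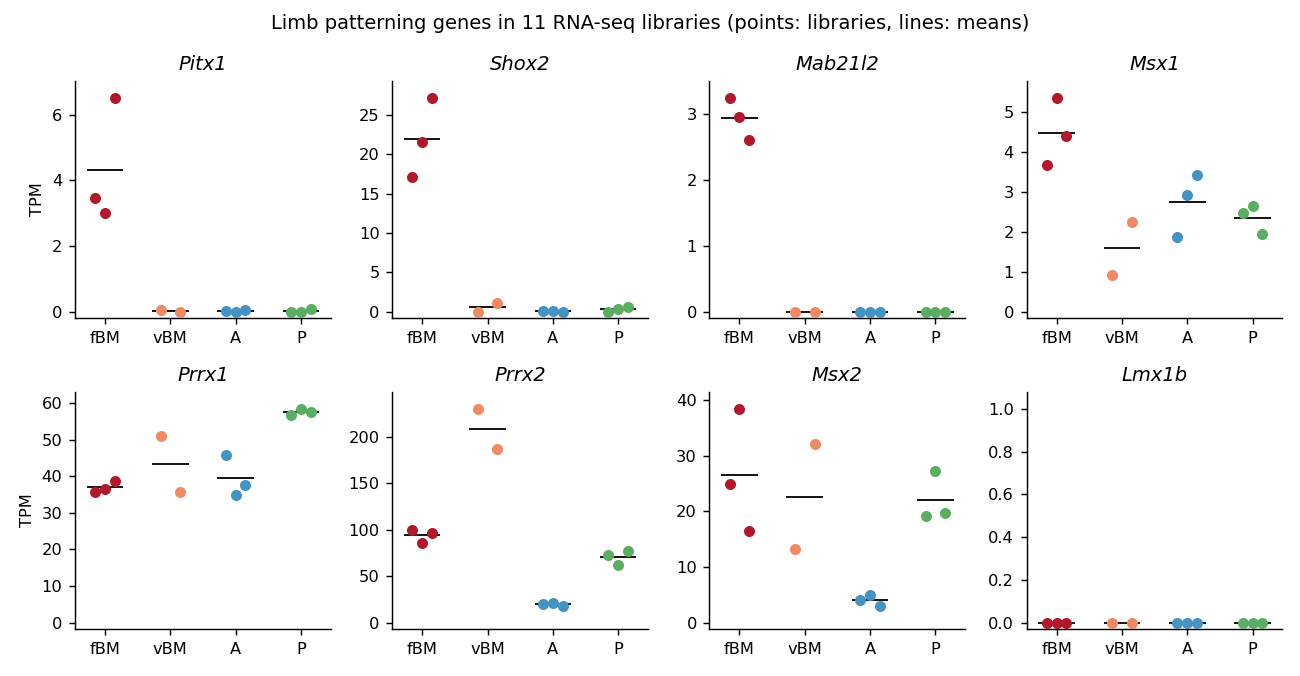
TPM of the 8 genes (vertical axes, linear, a scale per gene) in the libraries of each tissue; points are libraries and lines are means. Pitx1, Shox2 and Mab21l2 sit at 2.60 TPM or more in every femoral MSC library and at 1.10 TPM or less elsewhere, while Prrx2 is highest in vertebral MSCs and Lmx1b is at 0 throughout.

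Msx1 reached 3.68, 5.34 and 4.39 TPM in femoral MSCs (4.47 ± 0.83, SD, n = 3). The other values were 0.93 and 2.24 TPM in vertebral MSCs, 1.88, 2.92 and 3.43 in adipose MSCs, and 2.46, 2.64 and 1.95 in lung MSCs. The gap was small, since the highest adipose MSC library (3.43) came close to the lowest femoral MSC library (3.68). Msx1os read 0.32, 0 and 0.10 TPM in femoral MSCs and 0 in every other library.

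The remaining genes, Prrx1, Prrx2 and Msx2, were expressed in all 4 tissues, and none was highest in every femoral library. Prrx1 read 35.83, 36.70 and 38.78 TPM in femoral MSCs, 51.06 and 35.80 in vertebral MSCs, 45.99, 34.87 and 37.57 in adipose MSCs, and 56.79, 58.54 and 57.65 in lung MSCs. The lung MSC libraries lay above all others for Prrx1, and the other 3 tissues overlapped. Prrx2 read 99.10, 86.06 and 96.68 TPM in femoral MSCs, 229.95 and 187.18 in vertebral MSCs, 19.84, 20.58 and 17.94 in adipose MSCs, and 72.63, 62.08 and 76.91 in lung MSCs. No 2 tissues overlapped for Prrx2, which ran from vertebral MSCs through femoral MSCs and lung MSCs to adipose MSCs.

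Msx2 read 24.92, 38.49 and 16.44 TPM in femoral MSCs, 13.18 and 32.13 in vertebral MSCs, 4.11, 4.92 and 3.01 in adipose MSCs, and 19.18, 27.24 and 19.75 in lung MSCs. adipose MSCs lay below all other libraries, whereas femoral MSCs, vertebral MSCs and lung MSCs overlapped. On the TPM scale, which corrects for transcript length, the paralogs changed order: mean Prrx2 exceeded mean Prrx1 in femoral MSCs (93.9 and 37.1), vertebral MSCs (209 and 43.4) and lung MSCs (70.5 and 57.7), and lay below it in adipose MSCs (19.5 and 39.5). Mean Msx2 exceeded mean Msx1 in every tissue, with the closest values in adipose MSCs (4.01 and 2.74 TPM).

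Differences among the other 3 tissues, which do not use the femoral levels, were tested with edgeR's quasi-likelihood test across 12509 genes with Benjamini-Hochberg adjustment. Of the 8 genes, 4 (Prrx1, Prrx2, Msx1 and Msx2) passed the filter on low counts without the femoral MSC libraries, and results of these tests are given for those 4. Prrx2 was higher in vertebral MSCs than in adipose MSCs by 3.31 on the log2 scale (SE 0.17, adjusted p = 1.11e-06) and higher than in lung MSCs by 1.66 (SE 0.17, adjusted p = 2.19e-05). It fell by 1.65 in adipose MSCs against lung MSCs (SE 0.16, adjusted p = 4.15e-05). Prrx2 thus passed the test in all 3 non-femoral comparisons.

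Msx2 was higher in vertebral MSCs than in adipose MSCs by 2.35 on the log2 scale (SE 0.37, adjusted p = 0.00103) and lower in adipose MSCs than in lung MSCs, by -2.26 (SE 0.34, adjusted p = 0.000769). Between vertebral MSCs and lung MSCs its log2 difference was 0.09 (SE 0.36, adjusted p = 0.872). In all, 2 of these 4 genes were called higher and none lower in vertebral MSCs against adipose MSCs, where 13.2% of all genes were higher and 12.4% lower. In vertebral MSCs against lung MSCs 1 gene was higher and none lower (21.0% and 17.7% of all genes), and in adipose MSCs against lung MSCs none was higher and 2 were lower (16.0% and 14.9%).

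Prrx1 gave log2 differences of 0.03 (SE 0.18) in vertebral MSCs against adipose MSCs, -0.33 (SE 0.18, adjusted p = 0.171) against lung MSCs, and -0.36 (SE 0.16, adjusted p = 0.106) in adipose MSCs against lung MSCs. The last 2 passed the test with limma on log2(TPM + 1), at -0.42 (adjusted p = 0.0458) and -0.54 (adjusted p = 0.0101). The vertebral MSC difference from lung MSCs depended on the vertebral library kept, at -0.71 without vertebral MSC replicate 1 and -0.017 without replicate 2 (edgeR adjusted p = 0.0064 and 0.944). The adipose MSC difference from lung MSCs was -0.36 in both cases (edgeR adjusted p = 0.0225 and 0.0224). Msx1 did not pass in any pair, with log2 differences of -0.94 (SE 0.43, adjusted p = 0.138) in vertebral MSCs against adipose MSCs, -0.51 (SE 0.43) against lung MSCs and 0.42 (SE 0.38) in adipose MSCs against lung MSCs.

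Pitx1, Shox2 and Mab21l2 passed the filter only through the femoral MSC libraries, so no test among the other tissues is given for them. Lmx1b had no counts to test.

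**Figure D2:**
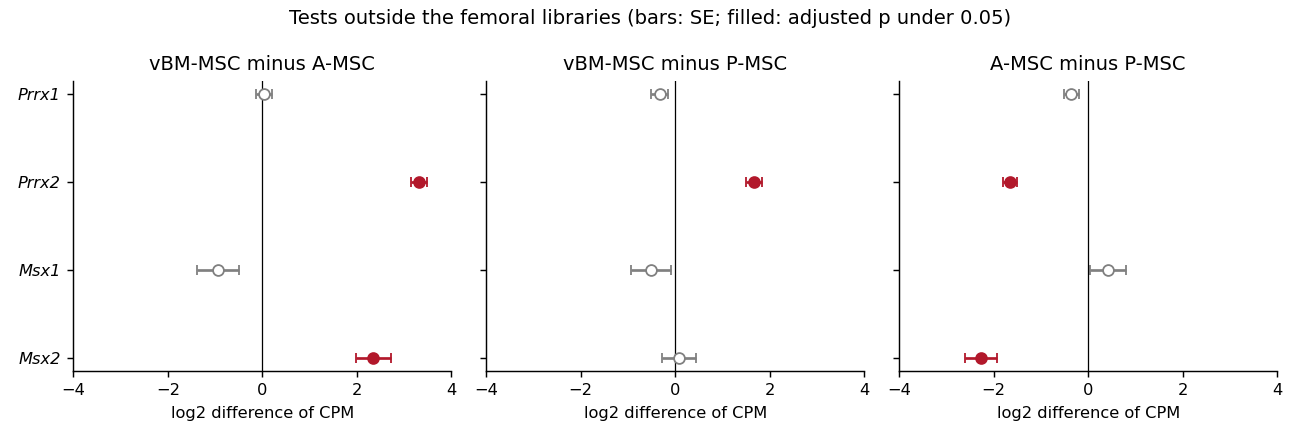
Difference in log2 CPM between pairs of non-femoral tissues (horizontal axes) for the 4 genes that passed the low-count filter without the femoral libraries; bars are standard errors and filled points passed the edgeR test at an adjusted p under 0.05. Prrx2 passed in each panel, at 3.31, 1.66 and -1.65, and Msx2 in both panels that hold adipose MSCs against a tissue with more Msx2.

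Accessible chromatin was described from the MACS2 summits with a −log10 q of at least 7, of which the lists held 59536 to 71345 per tissue. Fold enrichment is the height of a summit over the genome-wide background of its own list, and with 1 list per tissue there is no replicate and no test. A summit within 1 kb of an annotated start was present for 5 of the 8 genes in femoral MSCs and for 4 in each other tissue. The share over all 24963 annotated genes was 50.7% in femoral MSCs, 51.6% in vertebral MSCs, 52.6% in adipose MSCs and 51.7% in lung MSCs, so that the counts for these genes were near the background.

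Mab21l2 was accessible at its promoter in the femoral MSC list alone. A summit at -11 bases from the start, inside the promoter sequence shown, had a fold enrichment of 9.20 (−log10 q of 17.5), and a second one at -0.551 kb had 6.99. The other 3 lists held no summit of any strength within 1 kb of this start, and the 8 libraries of those tissues held no Mab21l2 counts. A site 9.03 kb downstream, in an intron of Lrba, was shared, at 11.04 in femoral MSCs, 8.09 in vertebral MSCs and 6.25 in lung MSCs, and had no listed summit in adipose MSCs. Upstream, at -12.3 kb, lung MSCs had a summit of 7.36 where femoral MSCs had 4.78, under the −log10 q limit.

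The outer and inner starts of Shox2 differed. A summit near the outer starts was present in all 4 lists, with fold enrichments of 9.56 in femoral MSCs, 5.52 in vertebral MSCs, 5.89 in adipose MSCs and 8.83 in lung MSCs. lung MSCs were thus close to femoral MSCs at this promoter, while Shox2 read 0.32 TPM on average in lung MSCs and 21.9 in femoral MSCs. At the inner start, 2.96 kb further along the gene, femoral MSCs had summits of 7.73 and 5.52, and in the intron 1.81 kb beyond it a summit of 9.20. None of these 3 had a listed summit of any strength in the other lists within 250 bases.

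Within 50 kb of the Shox2 gene, 8 sites were found, of which 5 were present in femoral MSCs alone, 2 in all 4 tissues and none in a single other tissue. The femoral sites at 43.4 kb and 0.123 kb stood just past the limit, each at 5.52 with a −log10 q of 7.14. The share of such sites over the whole lists was not computed, so nothing is read from the count. The second shared site lay at the start of the neighbouring gene Rsrc1, with 9.93, 8.46, 5.89 and 8.46 in femoral MSCs, vertebral MSCs, adipose MSCs and lung MSCs. Rsrc1 was expressed in every library, at 8.31 to 18.99 TPM.

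Pitx1 had no summit that reached a −log10 q of 7 within 50 kb of the gene in any tissue. Below that limit, 8 summits were deposited in this region for femoral MSCs, 1 for vertebral MSCs, 2 for adipose MSCs and 1 for lung MSCs. The strongest of femoral MSCs had a fold enrichment of 4.78 and a −log10 q of 5.38, and lay 0.135 and 3.19 kb after the start. Within 1 kb of the start vertebral MSCs had 2.94, adipose MSCs 3.68, and lung MSCs no listed summit. Lmx1b, at 0 counts, had no promoter summit past the limit either, and its only deposited one was in femoral MSCs (3.68). Upstream, at -2.17 kb and in an exon of C130021I20Rik, lung MSCs had a summit of 8.09.

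**Figure D3:**
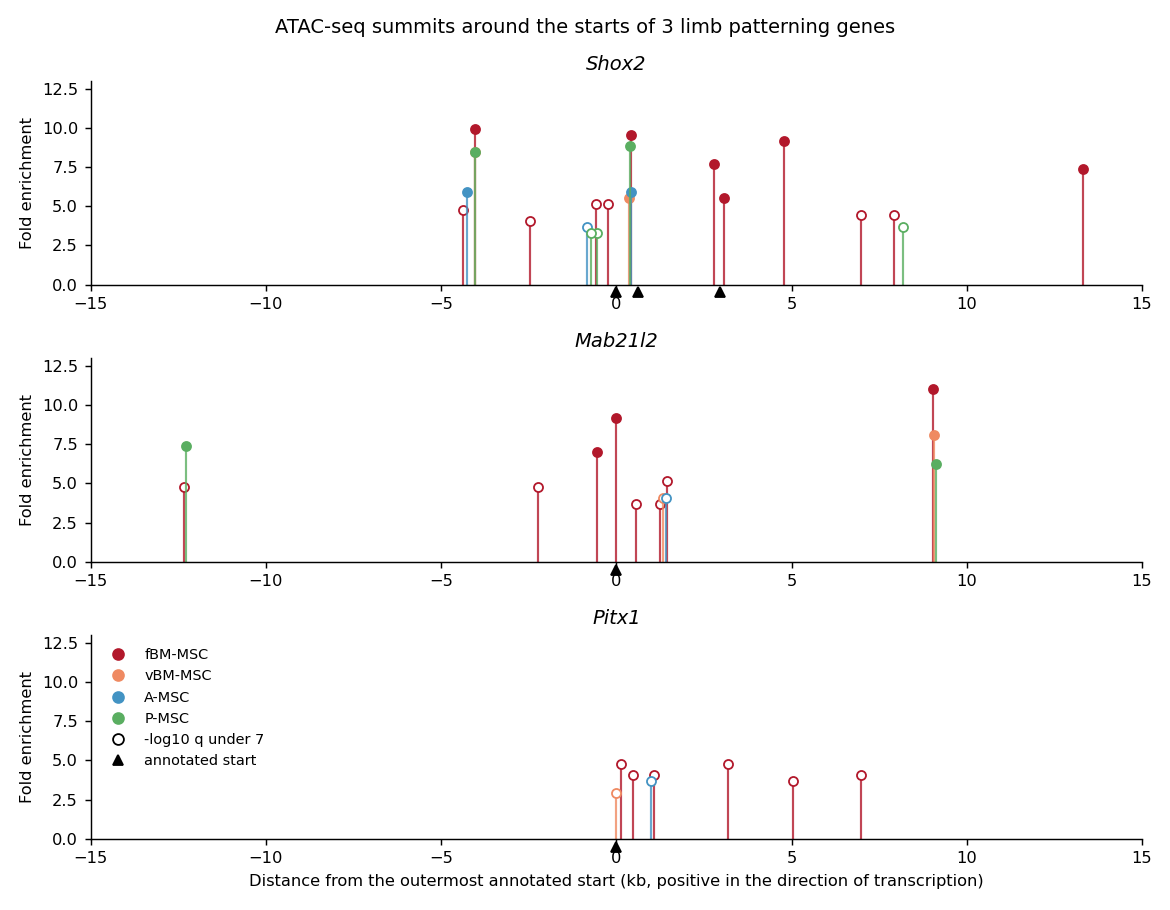
Fold enrichment (vertical axes) of every deposited summit within 15 kb of the outermost start of Shox2, Mab21l2 and Pitx1, by distance from that start in kb; colours are tissues, open points have a −log10 q under 7 and triangles are annotated starts. Summits of femoral MSCs alone stand at the inner Shox2 start and at the Mab21l2 start, and Pitx1 shows open points only.

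Within 50 kb of the longer genes Prrx1 and Prrx2, 14 and 24 sites were found, those of Prrx2 including sites at the neighbouring genes Ntmt1, Asb6 and Ptges. The counts for Msx1 and Msx2 were 7 and 8. At the Prrx1 start the summits were weak, with 5.89 in vertebral MSCs and in adipose MSCs, 7.36 in lung MSCs, and 4.78 in femoral MSCs, the last under the −log10 q limit. The intron site shown above, 60.6 kb into Prrx1, had 23.9 in adipose MSCs, 15.4 in lung MSCs and 7.36 in vertebral MSCs, and 5.15 (−log10 q of 6.25) in femoral MSCs. A second intron site at 46.3 kb went the other way, with 10.3 in femoral MSCs and 6.62 in vertebral MSCs and no listed summit in adipose MSCs or lung MSCs. The Prrx1 RNA levels of femoral MSCs and adipose MSCs, 37.1 and 39.5 TPM on average, did not separate while these sites did.

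At the Prrx2 start only femoral MSCs passed the limit (8.46), with 4.78 in vertebral MSCs, 5.15 in adipose MSCs and 4.41 in lung MSCs. The intron site 3.10 kb into the gene had 15.4 in vertebral MSCs, 12.51 in femoral MSCs and 9.20 in lung MSCs, and no listed summit in adipose MSCs. That order of the tissues was also the order of their Prrx2 TPM. Further in, a site at 19.8 kb had 13.2 in vertebral MSCs, 12.1 in femoral MSCs, 12.1 in lung MSCs and 8.46 in adipose MSCs. At 25.7 kb vertebral MSCs had 12.51 and femoral MSCs 5.52, and sites at 30.6 kb (8.83) and 40.7 kb (10.7) were deposited for vertebral MSCs alone. Of all 24 sites, 7 passed the limit in lung MSCs alone, 2 in vertebral MSCs alone, 2 in femoral MSCs alone and 1 in adipose MSCs alone. The strongest of the lung sites, at 54.1 kb in an intron of Ptges, had 13.2.

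The Msx1 and Msx2 promoters were accessible in every tissue. At the Msx1 start the fold enrichment was 10.3 in femoral MSCs, 12.9 in vertebral MSCs, 18.8 in adipose MSCs and 26.5 in lung MSCs. The lowest of these was that of femoral MSCs, the tissue with the highest Msx1 TPM. At the Msx2 start it was 10.3, 13.2, 13.2 and 20.6 in the same order, so that adipose MSCs equalled vertebral MSCs (13.2) where their mean Msx2 levels were 4.01 and 22.7 TPM. A site at -6.01 kb from the Msx1 start had 11.04 in femoral MSCs, 7.73 in vertebral MSCs, 21.3 in adipose MSCs and 20.2 in lung MSCs. The strongest site near Msx2, at -42.0 kb from its start, was alike in all lists, at 19.1, 18.4, 21.0 and 21.7.

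**Figure D4:**
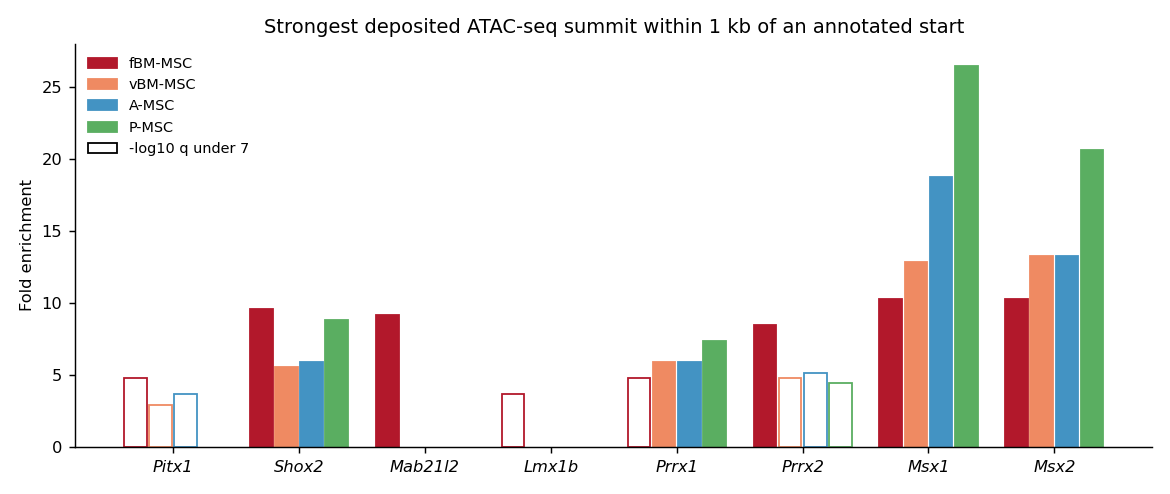
Fold enrichment (vertical axis, from 0) of the strongest deposited summit within 1 kb of an annotated start of each gene; bars are tissues, open bars have a −log10 q under 7 and a missing bar means that none was deposited. The Mab21l2 bar is that of femoral MSCs alone (9.20), and the Msx1 bars rise from 10.3 in femoral MSCs to 26.5 in lung MSCs.

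Other limb patterning genes were taken from a list of 66 genes grouped by known role, of which 47 were tested. The list was drawn up with earlier results of these data known, so its femoral counts are not independent evidence. In femoral MSCs against the other tissues, a comparison with the average of their 3 fitted log levels, 20 were called higher and 8 lower in the edgeR test, against 21.0% and 18.7% of all genes. On the linear TPM scale 3 of the 20 (Tbx4, Tbx5 and Cyp26b1) lay below the mean of the other tissues, and none of the 8 lay above it. Without the femoral libraries 11 of the 20 passed the low-count filter, so the other 9 were admitted by the tissue in which they were called higher, and nothing is read from the count of 20. In femoral MSCs against vertebral MSCs, 9 were higher and 5 lower, against 5.24% and 7.56% of all genes. Of those 9 higher genes 5 passed the filter without the femoral libraries, so nothing is read from this count either. That second count depended on single libraries, with 7 called without vertebral MSC replicate 1 and 9 without femoral MSC replicate 2, in place of 14.

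The limb field factors Tbx4 and Tbx5, which act at the start of limb bud formation, were called higher in femoral MSCs than in vertebral MSCs, and higher in lung MSCs than in vertebral MSCs and adipose MSCs. Both were also among the 20 called against the average log level, although mean TPM was 1.14 for Tbx4 and 0.72 for Tbx5 in femoral MSCs and 2.40 and 0.88 over the other 3 tissues. Tbx4, a hindlimb factor that is also expressed in lung mesenchyme, read 1.39, 1.07 and 0.96 TPM in femoral MSCs, 0.02 and 0 in vertebral MSCs, 0.07, 0 and 0 in adipose MSCs, and 5.73, 6.98 and 8.77 in lung MSCs (adjusted p of edgeR's test 0.00212 for femoral MSCs against vertebral MSCs). Tbx5, the forelimb factor, read 1.31, 0.21 and 0.64 TPM in femoral MSCs, 0 in all vertebral MSC and adipose MSC libraries, and 2.04, 2.41 and 3.43 in lung MSCs. Its femoral counts were at least 36.0-fold higher than in vertebral MSCs (edgeR adjusted p = 0.00874, and 0.0653 with limma on log2(TPM + 1)). That bound sets a floor of 3 counts over the pooled vertebral libraries and would be lower with either left out. The 2 T-box genes thus lay higher in lung MSCs than in femoral MSCs, in contrast to Pitx1 and Shox2, although this last difference was not tested.

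Isl1, which acts upstream in the hindlimb field, read 1.49, 3.05 and 0.42 TPM in femoral MSCs, 0 in all vertebral MSC and adipose MSC libraries, and 0.75, 0.30 and 0.25 in lung MSCs. Its femoral counts were at least 56.0-fold higher than in vertebral MSCs, with a floor of 3 counts over that tissue. This bound would be lower with either vertebral library, or femoral replicate 2, left out. Mab21l1, the paralog of Mab21l2, read 3.85, 2.14 and 0.38 TPM in femoral MSCs, 0 and 0.02 in vertebral MSCs, 0.04, 0 and 0 in adipose MSCs, and 0.47, 0.16 and 0.18 in lung MSCs. Isl1 and Mab21l1 passed the filter only through the femoral libraries, so no p is given for them. Unlike Mab21l2, it was detected in every lung MSC library. The other tested paralog was called in no comparison, and Pitx3, Lmx1a and Msx3 did not pass the filter on low counts.

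Among outgrowth signals and their targets, Bmp2, Fgfr1, Grem1, Wnt5a and Etv5 were called higher in femoral MSCs than the average log level elsewhere. All of these passed the low-count filter without the femoral libraries, but only Fgfr1 and Grem1 were also called against vertebral MSCs alone. Mean Grem1 was higher in lung MSCs (165.9 TPM) than in femoral MSCs (142.5 TPM). Sp6, a ridge transcription factor, read 4.35, 18.81 and 15.80 TPM in femoral MSCs, 0.36 and 1.67 in vertebral MSCs, 0.16, 0 and 0 in adipose MSCs, and 0 in lung MSCs. It and Bmp7 passed the low-count filter only through the femoral libraries, so no p is given for them. Among mesenchyme and condensation factors Tbx15 and Emx2 were called in the same way and passed that filter. Neither was called against vertebral MSCs alone. Dlx5, which is also a regulator of osteoblasts, read 9.09, 17.78 and 44.32 TPM in femoral MSCs, 0.27 and 5.97 in vertebral MSCs, 0 in adipose MSCs, and 0, 0.16 and 0 in lung MSCs. Dlx5, Dlx6 and Barx1 passed the filter only through the femoral libraries, so no p is given for them. Dlx5 and the osteoblast marker sum were both highest in femoral MSC replicate 3 and both higher in vertebral MSC replicate 2 than in replicate 1, and the part of bone-lineage cells in the Dlx5 difference was not tested.

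Genes lower in the femur included Osr1, a factor of joint and body wall mesenchyme, at 3.36, 2.56 and 0.87 TPM in femoral MSCs, 16.24 and 14.84 in vertebral MSCs, 4.95, 6.88 and 6.82 in adipose MSCs, and 45.70, 46.45 and 53.14 in lung MSCs. The log2 difference of femoral MSCs from vertebral MSCs was -2.79 (SE 0.39, edgeR adjusted p = 0.00117). Dlx2 was also lower in femoral MSCs than in vertebral MSCs, by -1.24 (SE 0.23, edgeR adjusted p = 0.00679). Both calls held when any single library was left out, unlike those of Dlx1 and Cyp26b1, whose adjusted p of edgeR's test moved from 0.0297 and 0.0306 to 0.0951 and 0.322 without vertebral MSC replicate 1.

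Outside the femur, 14 of the 47 genes were higher and 5 lower in vertebral MSCs than in adipose MSCs, against 13.2% and 12.4% of all genes. Of the 14, Dlx5, Sp6 and Irx5 passed the low-count filter only through the femoral libraries, and of the 5, Alx1 and Osr2 did not pass it without the adipose libraries, so nothing is read from these counts. Tbx15, a factor of appendicular and trunk mesenchyme, read 8.71 and 15.56 TPM in vertebral MSCs and 0.25, 0.69 and 0.16 in adipose MSCs, a log2 difference of 4.89 (SE 0.48, edgeR adjusted p = 5.65e-05). Its femoral MSC values of 16.58, 13.47 and 15.33 TPM overlapped those of vertebral MSCs. The retinoic acid enzymes Aldh1a2 (synthesis) and Cyp26b1 (breakdown) were opposed, with Aldh1a2 lower in vertebral MSCs than in adipose MSCs by -4.83 (SE 0.29, edgeR adjusted p = 2.64e-06) and Cyp26b1 higher by 5.01 (SE 0.77, edgeR adjusted p = 0.000941). Alx1 was at 0 in both vertebral MSC libraries and at 4.77, 3.52 and 4.08 TPM in adipose MSCs, at least 139-fold higher. That bound sets a floor of 3 counts over the pooled vertebral libraries and would be lower with either left out. Alx1 reached 1 CPM outside adipose MSCs in only 1 library, so no p is given.

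In vertebral MSCs against lung MSCs, 14 of the 47 were higher and 16 lower, against 21.0% and 17.7% of all genes, and 19 in all were called without vertebral MSC replicate 2. Of the 14 and the 16, 12 and 13 passed the filter without the femoral libraries. In adipose MSCs against lung MSCs, 5 were higher and 12 lower, against 16.0% and 14.9% of all genes. Of the 5, Hand2 and Alx1 did not pass the filter without the adipose libraries, and of the 12, Isl1 and Mab21l1 passed it only through the femoral libraries, so nothing is read from these counts. Lhx9, a LIM homeodomain factor of the limb bud, read 8.45, 10.01 and 8.59 TPM in lung MSCs and 0.60, 0.67 and 0.12 in adipose MSCs, a log2 difference of -4.08 for adipose MSCs against lung MSCs (SE 0.70, edgeR adjusted p = 0.00149). Hand2, an anteroposterior factor, read 0.51, 0.96 and 0.78 TPM in adipose MSCs and 0 in all lung MSC libraries, at least 37.2-fold higher in adipose MSCs. That bound sets a floor of 3 counts over the pooled lung libraries and would be lower with any of them left out. Hand2 reached 1 CPM outside adipose MSCs in only 1 library, so no p is given. Shh, Fgf8, Fgf4 and Wnt7a, signals of the embryonic limb bud, did not pass the filter on low counts.

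**Figure D5:**
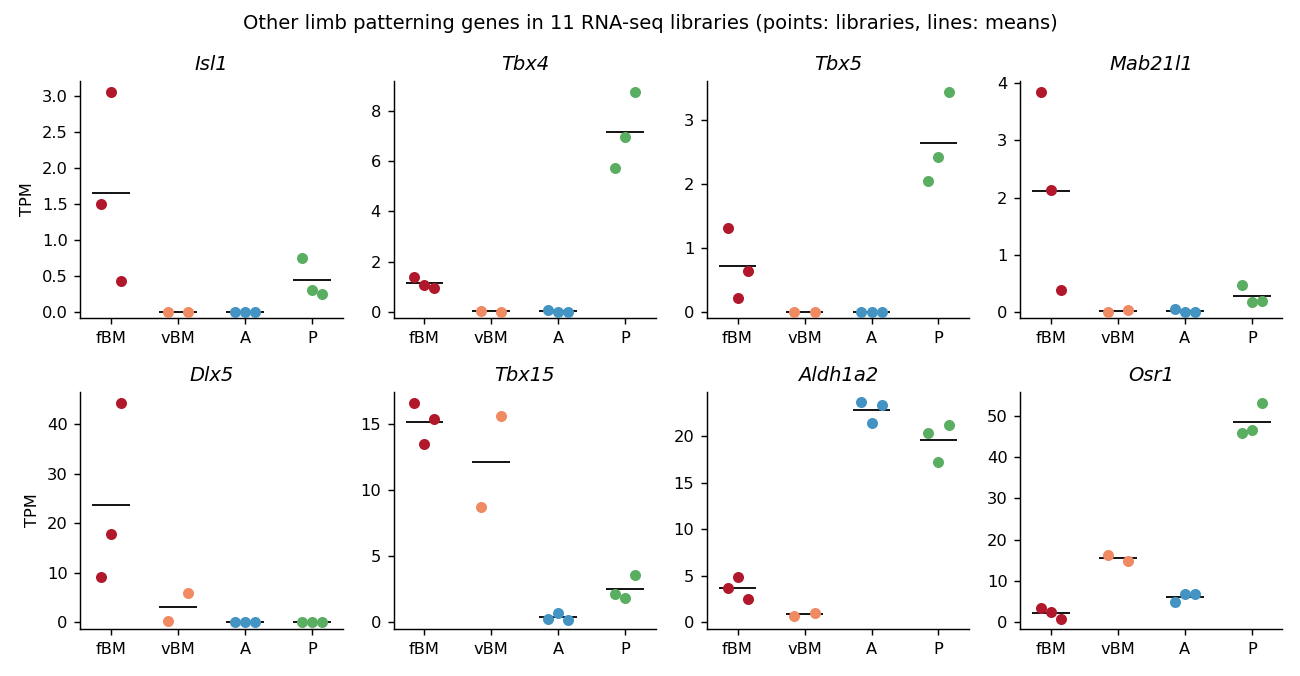
TPM of 8 other limb patterning genes (vertical axes, linear, a scale per gene) in the libraries of each tissue; points are libraries and lines are means. Tbx4 and Tbx5 are highest in lung MSCs and above vertebral MSCs and adipose MSCs in femoral MSCs, while Osr1 is lowest in femoral MSCs on average and reaches 53.14 TPM in lung MSCs.

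The genes whose pattern was most alike were ranked by Pearson r of log2(TPM + 1) over the 11 libraries among 12009 genes, which is a description of libraries that fall into tissue groups. For Pitx1 they were C130050O18Rik (r = 0.997), Ostn (r = 0.980), a secreted factor made in bone and muscle, and Panx3 (r = 0.977), a channel protein of osteoblasts and cartilage. For Shox2 and Mab21l2 the first was the same gene, Atp6v0d2 (r = 0.985 and 0.991), a proton pump subunit known from osteoclasts, which read 19.6 TPM on average in femoral MSCs, 0.47 in vertebral MSCs and 0 in adipose MSCs and lung MSCs. C5ar1, a complement receptor, was also among the 3 closest to both, at 10.4 TPM in femoral MSCs and 0.26 to 0.40 elsewhere.

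For Prrx2 the closest was Mmp16 (r = 0.973), a membrane-bound matrix metalloproteinase, with means of 19.3 TPM in vertebral MSCs, 7.21 in femoral MSCs, 6.49 in lung MSCs and 0.54 in adipose MSCs. Efna5 (r = 0.969), an ephrin ligand, had the same order. For Prrx1 the list was Brcc3, Zfp248 and Vcam1 (r = 0.949 to 0.940), for Msx1 it was Mroh1, Dedd2 and Dym (r = 0.959 to 0.913), and for Msx2 it was Mapk11, Elk3 and Itgb1 (r = 0.976 to 0.969).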

How the data were processed

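RNA-seq and ATAC-seq of cultured mouse MSCs were used as deposited. The authors made Smart-seq2 libraries and ran RSEM with STAR on mm10. The expected counts deposited are RSEM estimates, not normalized, and were rounded here. The deposited TPM values were scaled by the authors for the length of transcripts, with equal sums in all libraries. For ATAC-seq the authors trimmed reads (TrimGalore), aligned them with Bowtie, removed duplicates, shifted reads for Tn5 and called MACS2 summits on pooled reads without local background. The deposited lists give fold enrichment (a ratio) and −log10 q per summit, on autosomes only. FPKM, gene length and the p column were not used.

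All 11 libraries entered 1 edgeR model (version 4.0.16, R 4.3.3) with TMM scaling, keeping genes whose CPM reached 1 in 2 or more libraries. Calls had an adjusted p under 0.05. The tests were tried on simulated data first. The 4 tissues came from the same 3 mice per the study's methods, but which libraries share a mouse is not given in the sources used here, so libraries were treated as independent. vBM-MSC replicate 3 was not analysed here. Sequences came from RefSeq (GRCm38).

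Summits of the 4 lists were joined into a site where neighbours lay within 250 bases. Named genes were the 8 genes, up to 5 called list genes with the largest change per direction and comparison, the 3 genes most alike to each of the 8, and genes overlapping them. Of these, those that carry the results are given. Some genes of the list are not reported here by name. Members and lists were chosen with earlier results of these data known. DESeq2 (1.42.0), limma-trend (3.58.1), RLE scaling, 2 other filters, other summit limits, a replicate block and leaving out each library were the alternatives.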

Additional observations from a re-analysis of the deposited data

How the results depend on the processing

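With 2 vBM-MSC libraries, leaving out 1 assumes that the other varies like the remaining tissues. Over leaving out each library, 2 to 3 of the 8 genes were called in vBM-MSCs against A-MSCs, 1 to 2 in vBM-MSCs against P-MSCs and 2 to 3 in A-MSCs against P-MSCs, and 4 had femoral values above all others each time. The limb list gave 22 to 30 calls (fBM-MSCs against the others), 7 to 19 (against vBM-MSCs), 15 to 20 (vBM-MSCs against A-MSCs), 19 to 31 (against P-MSCs) and 13 to 21 (A-MSCs against P-MSCs). Shares of all genes were not computed for these fits, so the ranges have no background beside them. In vBM-MSCs against P-MSCs both limma fits called 2 of the 8 genes in place of 1. Leaving out each library moved the log2 difference of Shox2 between -4.29 and 4.76 (vertebral against adipose) and between -6.51 and 2.23 (vertebral against lung), that of Prrx1 between -0.35 and 0.34 (vertebral against adipose), and that of Msx2 between -0.56 and 0.53 (vertebral against lung). Shox2 passed the low-count filter only through the femoral libraries, so its values outside the femur support nothing. The same holds for its call in vertebral against adipose without vBM-MSC replicate 1. The upper end of the range for vBM-MSCs against A-MSCs rests on that call. The direction of Shox2 turned without vBM-MSC replicate 2, and that of Prrx1 without vBM-MSC replicate 1 or A-MSC replicate 2 (-0.051). That of Msx2 turned without vBM-MSC replicate 2, with limma (-0.072 and -0.080) and with the replicate block (-0.17). No turned difference passed the test. Leaving out libraries from the pooled-count ratios was added after the data were seen. The cause was not tested.

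By replicate number, 1 of 15 same-numbered pairs correlated above 0.1 (range -0.028 to 0.125), and 5 of 11 libraries correlated best with their own number. Values were centred within small tissue groups, so this check cannot show whether the numbers pair the libraries. With the replicate block, calls among the 8 genes stayed at 2, 1 and 2, and the limb list gave 27, 11, 16, 25 and 16 calls in place of 28, 14, 19, 30 and 17.

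Promoter summits were found for 8 genes in fBM-MSCs when every deposited summit counted, in place of 5. The count also rose in each other tissue. At a −log10 q of at least 20, promoter summits were found for 2 genes, Msx1 and Msx2, in every tissue. The share over all genes was not computed at either setting, so nothing is read from these counts.

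Of 216 alternative values for Prrx1, Prrx2, Msx1 and Msx2 outside the femur, 203 kept direction and side of the threshold, 7 newly passed it and 6 turned. For the named list genes, 84 of 882 lost their call and none turned. These include genes that passed the low-count filter only through the group where they were high, so nothing is read from these counts.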

Other observations

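Pitx1, Mab21l2 and 14 further genes reached at least 1 TPM in every fBM-MSC library and stayed under 0.1 TPM in every A-MSC and P-MSC library. Of these 16, 4 were also under 0.1 TPM in both vBM-MSC libraries, and these were Pitx1, Mab21l2, C130050O18Rik and Ostn. The other 12 included the bone matrix gene Ibsp, at 218.38, 286.39 and 1009.69 TPM in fBM-MSCs and 16.92 and 320.80 in vBM-MSCs, and Wif1, a Wnt inhibitor, at 5.78, 7.10 and 32.91 in fBM-MSCs and 10.07 and 24.50 in vBM-MSCs. Also among the 12 was Fcer1g, at 4.7, 15.87 and 19.8 TPM in fBM-MSCs and 0 and 8.21 in vBM-MSCs. Ncf1 was another, at 1.16, 1.47 and 2.64 TPM in fBM-MSCs and 0.04 and 0.74 in vBM-MSCs. Of the 16, 8 were at 0.1 TPM or more in vBM-MSC replicate 1 and 12 in replicate 2. The genes were selected by these values after they were seen, and no test was made.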
